A study of Mus musculus with 8 samples.

Results

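Pfkfb3, which makes the strongest known activator of phosphofructokinase, was described here together with 9 genes of the entry of glucose into glycolysis. These were its paralogues Pfkfb1, Pfkfb2 and Pfkfb4, the glucose carrier Slc2a1, the hexokinases Hk1 and Hk2, the phosphofructokinases Pfkl and Pfkp, and the lactate dehydrogenase Ldha. Pfkfb3 was chosen by its large rise in the TNF libraries of these data, so its values are a description and were not tested. The other 9 genes stand beside it in the pathway and were also chosen with results of these data known, so their counts below describe them and are not independent evidence. All 10 symbols matched 1 row each among the 55414 Ensembl gene IDs of the count table, and all 10 passed the filter on low counts, which left 13368 genes to test.

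The RNA came from Paneth cells, the antimicrobial secretory cells of the small intestinal crypts, of wild-type (WT) mice that were injected with phosphate-buffered saline (PBS) or with TNF (tumor necrosis factor), a cytokine of inflammation. The small intestine was taken after 3 hours and the cells were purified on a cell sorter. There were 4 PBS and 4 TNF libraries, and the comparison of TNF with PBS asks how these cells change their transcripts within that time. The study's methods name C57BL/6J mice, while the dose and route of TNF and the age and sex of these animals were not found in the labels or methods. The study describes its sorted samples as taken from individual mice, the labels name no animal, and each library was counted as 1 replicate.

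The libraries held 23824717 to 32576077 counts, and levels are given as normalized CPM, that is CPM of the library total adjusted by the TMM scaling factor. TNF replicate 4 stood apart. Its TMM factor was 0.4481 against 0.9952 to 1.357 in the other 7 libraries, and alpha-defensin (Defa) genes took 51.4% of its counts against 32.0% to 37.9%. The 7 Paneth cell markers summed to 310880 to 459022 normalized CPM in PBS, to 388025 to 452516 in TNF replicates 1 to 3 and to 1208489 in TNF replicate 4, so the labelled cell type was carried by its defining transcripts, such as Lyz1, in every library. The sum in TNF replicate 4 was raised by its low TMM factor of 0.4481 and is not a share of its counts. The 8 enterocyte markers summed to 270 to 303 in PBS and 120 to 138 in TNF, with Apoa4 and Anpep lower. Anpep alone held 233 to 269 of the sum in PBS and 59.9 to 120 in TNF, and Fabp2 was highest in TNF replicate 4 (47.8 against 16.4 to 25.9 in PBS). Of 10 immune markers, 4 were at 0 in all libraries, among them Cd3e, S100a8 and S100a9, Cd52 was higher (0.385 to 0.591 in PBS and 0.772 to 3.35 in TNF), and the sum was 10.1 to 14.7 in PBS and 14 to 16.7 in TNF but 71.4 in TNF replicate 4, where Lyz2 made up 64.3. Of 8 markers of stroma and endothelium, only Vim passed the filter and was higher, with sums of 0.26 to 0.452 in PBS and 1.23 to 1.8 in TNF. The 7 goblet markers summed to 3681 to 5938 and 6391 to 7626, with Muc2 and Spdef higher and Clca1 and Fcgbp lower. Single libraries stood out here, with Clca1 at 554 in PBS replicate 1 against 41.1 to 44 in the other PBS libraries, and Agr2 at 2681 and Tff3 at 1884 in TNF replicate 4 against 282 to 369 and 452 to 576. The sums of the 5 stem cell markers were 1454 to 2351 and 1312 to 1855, with 4 of these markers lower in TNF. The part of these other cell types in the results below was not tested, and in bulk RNA fewer cells of a type and less RNA per cell cannot be told apart.

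Glucose enters most cells through facilitative carriers of the SLC2A family and is trapped inside by hexokinase, which phosphorylates it. Phosphofructokinase then makes the committed step of glycolysis. The PFKFB enzymes both make and remove the sugar bisphosphate that activates phosphofructokinase, and Pfkfb3 encodes the isoform in which the synthesizing activity dominates. Lactate dehydrogenase turns the pyruvate at the end of the pathway into lactate and restores the cofactor that glycolysis uses. Several of these genes are known targets of the hypoxia-inducible factors (HIF), and inflammatory cytokines are known to raise glycolysis in a range of cell types.

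Promoter sequences are shown for the 4 members that differed most in the upward direction and for Pfkl, the member that was lower in TNF. Each is the RefSeq window of 250 bases before and 50 bases from a gene's start. The table of windows is on build GRCm38.p6, and each window was placed on GRCm39 by an exact match. All 10 members had a window, and the one nearest to the canonical start was used. The windows lie at chr2:11506852-11507151 (minus strand) for Pfkfb3, whose start in that table is 516 bases from the canonical start, at chr6:82751386-82751685 (minus) for Hk2, at chr13:6698758-6699057 (minus) for Pfkp, at chr4:118965692-118965991 (plus) for Slc2a1 and at chr10:77845592-77845891 (minus) for Pfkl. Capitals mark ACGTG or GCGTG, the letters at the core of the hypoxia response element, on either strand, so that the opposite strand reads CACGT or CACGC. The letters CACGTG hold ACGTG on both strands and count 2 times.
Pfkfb3: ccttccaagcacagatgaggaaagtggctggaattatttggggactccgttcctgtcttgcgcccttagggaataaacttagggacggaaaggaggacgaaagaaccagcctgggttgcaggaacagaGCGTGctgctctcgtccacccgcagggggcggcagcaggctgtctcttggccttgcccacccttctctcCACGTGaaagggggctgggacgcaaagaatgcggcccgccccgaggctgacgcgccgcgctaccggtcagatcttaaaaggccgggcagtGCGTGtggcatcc
Hk2: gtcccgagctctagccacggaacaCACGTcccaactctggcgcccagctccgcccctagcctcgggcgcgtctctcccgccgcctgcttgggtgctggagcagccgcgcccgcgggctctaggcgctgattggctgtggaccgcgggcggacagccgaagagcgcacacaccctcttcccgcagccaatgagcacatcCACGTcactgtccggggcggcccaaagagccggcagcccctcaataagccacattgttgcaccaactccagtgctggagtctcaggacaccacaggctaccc
Pfkp: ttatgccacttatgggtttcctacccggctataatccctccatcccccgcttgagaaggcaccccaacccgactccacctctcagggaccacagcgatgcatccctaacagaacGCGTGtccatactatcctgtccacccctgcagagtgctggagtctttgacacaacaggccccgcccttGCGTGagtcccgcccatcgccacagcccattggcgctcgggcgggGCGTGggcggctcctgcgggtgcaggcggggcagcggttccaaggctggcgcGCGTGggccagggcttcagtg
Slc2a1: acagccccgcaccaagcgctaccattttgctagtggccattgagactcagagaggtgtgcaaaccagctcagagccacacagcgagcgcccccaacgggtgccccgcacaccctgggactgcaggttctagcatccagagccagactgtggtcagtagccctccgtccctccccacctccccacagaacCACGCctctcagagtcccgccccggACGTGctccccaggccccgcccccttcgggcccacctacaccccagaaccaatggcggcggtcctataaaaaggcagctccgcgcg
Pfkl: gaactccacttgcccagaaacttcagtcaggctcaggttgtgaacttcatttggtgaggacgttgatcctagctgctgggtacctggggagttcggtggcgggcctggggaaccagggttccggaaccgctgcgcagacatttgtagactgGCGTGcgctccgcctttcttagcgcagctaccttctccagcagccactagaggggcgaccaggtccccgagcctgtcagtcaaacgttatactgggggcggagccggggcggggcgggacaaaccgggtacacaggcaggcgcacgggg

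In the Pfkfb3 window the letters ACGTG occurred 2 times, as 1 CACGTG, and GCGTG occurred 2 times. The Hk2 window held ACGTG 2 times, the Pfkp window GCGTG 4 times and the Slc2a1 window each motif 1 time. The Pfkl window, of the gene that was lower, held GCGTG 1 time. Among all members ACGTG was found in 5 windows and GCGTG in 8, while 19.7% and 32.6% of all 32544 RefSeq windows held them. Those windows were not matched to the members for base content. The member windows held 47.3% (Pfkfb1) to 67.3% (Hk2 and Ldha) G and C. The NF-kappaB consensus was found in 1 member window, that of Pfkfb2, and in 8.49% of all windows. A match describes these letters only and is not evidence of binding.

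Among the 9 members that were tested, 7 were higher and 1 was lower in TNF at an adjusted p under 0.05 (edgeR's quasi-likelihood test, p-values adjusted over all genes by Benjamini-Hochberg), and Pfkfb1 was not called. The background was large, since 5747 of the 13368 genes tested were called (43.0%), of which 3122 were higher (23.4% of those tested) and 2625 lower (19.6%). The median log2 fold change of the 9 members was 0.73, beside 0.03 over all genes tested. The 4 PBS and 4 TNF values did not overlap for 7 of the 9, as for 5634 of all genes tested, and they overlapped for Pfkfb1 and Pfkfb4. With library size in place of TMM scaling the median of all genes shifted by -0.39, and only Hk2, Pfkp and Slc2a1 remained called among the members (3 higher and 0 lower, against 757 higher of 3182 calls over all genes). The same 8 members were called without TNF replicate 4, where calls over all genes were also more frequent (6922 of 13726).

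**Figure D1:**
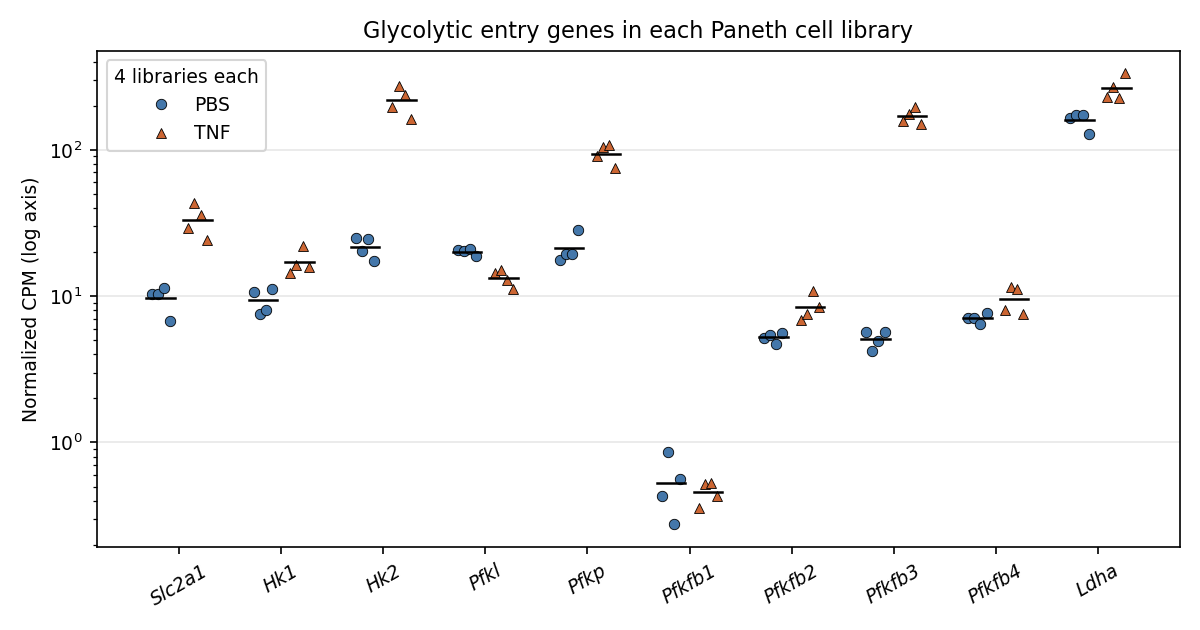
Normalized CPM (log axis) of the 10 members, with 1 circle per PBS library, 1 triangle per TNF library and a line at each group mean. Pfkfb3, Hk2, Pfkp and Slc2a1 show TNF values well clear of the PBS values, Pfkl has its TNF values below them, and the Pfkfb1 values of both groups overlap.

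Pfkfb3 (ENSMUSG00000026773 in the annotation, chromosome 2, 11476244 to 11558888, minus strand) was low and even in PBS, with 5.68, 4.24, 4.92 and 5.68 normalized CPM in replicates 1 to 4. In TNF it stood at 157, 175, 195 and 150. Every TNF library was thus far above every PBS library, and TNF replicate 4, which stood apart in other respects, was the lowest of its group. The means were 5.13 ± 0.693 and 169 ± 20.1 (SD, n = 4 each), a log2 difference of 5.04 (SE 0.16), or 32.9-fold. These levels rested on 114 to 251 counts per PBS library and 1748 to 5555 counts per TNF library. Its log2 difference was between 4.66, with library size alone, and 5.10, without TNF replicate 4. All 75-base stretches of its canonical transcript occurred in no transcript of another gene.

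Of the 3 paralogues, Pfkfb2 and Pfkfb4 passed the test. Pfkfb2, the isoform best known from heart, had 5.17, 5.43, 4.69 and 5.59 normalized CPM in PBS and 6.92, 7.54, 10.8 and 8.42 in TNF. The groups did not overlap and it rose by 0.69 on the log2 scale (SE 0.16, edgeR adjusted p = 0.00554). Pfkfb4, another isoform with HIF-responsive expression, had 7.05, 7.14, 6.5 and 7.67 in PBS and 7.98, 11.6, 11.1 and 7.56 in TNF. Its TNF replicate 4 lay inside the PBS range, and the log2 fold change of 0.44 (SE 0.16) passed the threshold narrowly (edgeR adjusted p = 0.0497). That call was lost under 13 of 16 alternatives, among them the omission of any one library other than TNF replicate 4, where the log2 fold changes were 0.30 to 0.50. The adjusted p over the alternatives was between 0.00881, without TNF replicate 4, and 0.894, with library size alone.

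Pfkfb1, the liver and muscle isoform, was near the limit of detection at 5 to 25 counts per library. It had 0.429, 0.855, 0.276 and 0.566 normalized CPM in PBS and 0.355, 0.519, 0.526 and 0.429 in TNF, with the TNF values inside the PBS range. The log2 fold change was -0.20 (SE 0.38, edgeR adjusted p = 0.691), and it was 0.08 without PBS replicate 2. Pfkfb2 and Pfkfb1 each overlap a gene on the opposite strand, Yod1 over 1839 bases and Apex2 over 187 bases, and whether strand was used in counting is not given. Yod1 had 1145 counts in all beside 1523 for Pfkfb2, and its log2 fold change was 0.80. Apex2 had 742 counts beside 116 for Pfkfb1, and its log2 fold change was 1.08. Pfkfb2 also overlaps Gm29427 on its own strand over 1262 bases, to which 2 counts were given in all, and 62.4% of its 75-base stretches occurred in no other gene.

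Per kilobase of merged exon, which allows levels of different genes to be compared, Pfkfb3 made up 28.8% ± 3.19 (SD, n = 4) of the summed PFKFB transcripts in PBS and 90.6% ± 0.664 in TNF. In PBS the most abundant family member was Pfkfb4 with 46.8% ± 0.922, followed by Pfkfb3 and by Pfkfb2 with 20.6% ± 0.777, while Pfkfb1 held 3.82% ± 1.76. In TNF the others held 5.96% ± 0.745, 3.15% ± 0.443 and 0.314% ± 0.0343. The family sum was 2.21 ± 0.161 normalized CPM per kilobase in PBS and 23.2 ± 2.87 in TNF. These shares contain Pfkfb3 and are a description. With canonical transcript lengths in place of merged exons the Pfkfb3 share was 18.5% in PBS and 84% in TNF, and in PBS it then lay below that of Pfkfb2 (34.6%). In shares of raw counts both were close in PBS, at 28.5% for Pfkfb3 and 29.1% for Pfkfb2, so their order rests on the length used.

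The glucose carrier and both hexokinases rose. Slc2a1 encodes GLUT1, the carrier of basal glucose uptake. It had 10.4, 10.4, 11.3 and 6.81 normalized CPM in PBS and 29.1, 43.3, 35.8 and 24.1 in TNF, with all TNF libraries above all PBS libraries. It rose by 1.77 on the log2 scale (SE 0.21, edgeR adjusted p = 6.82e-05), or 3.42-fold, and by 1.91 without TNF replicate 4. Slc2a1 (chromosome 4, 118965908 to 118996365, plus strand) overlaps Gm12868 on the opposite strand over 249 bases. That gene had 366 counts beside 4626, and its log2 fold change was 1.58 (edgeR adjusted p = 0.000367).

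Hk2 (chromosome 6, 82699740 to 82751469, minus strand) encodes the hexokinase of muscle, fat and many tumors, which can bind to mitochondria. It had 24.9, 20.4, 24.7 and 17.3 normalized CPM in PBS and 197, 274, 238 and 162 in TNF. No TNF value came near the PBS range, and the rise was 9.99-fold (log2 fold change 3.32, SE 0.20, edgeR adjusted p = 7.55e-07), the largest among the tested members. Hk1, the widely expressed hexokinase, had 10.7, 7.58, 8.04 and 11.2 in PBS and 14.5, 16.4, 21.9 and 15.9 in TNF. The groups did not overlap, and it rose by 0.87 on the log2 scale (SE 0.18, edgeR adjusted p = 0.00239). With library size alone the log2 fold change of Hk1 was 0.47 and it was no longer called (edgeR adjusted p = 0.35).

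Within the hexokinase family Hk2 held 61.7%, 64.4%, 65.1% and 51.1% of the transcripts per kilobase in the PBS libraries and 90.7%, 92.4%, 89.9% and 89.7% in the TNF libraries. A share within a library does not depend on the scaling factor. The means were 60.6% ± 6.5 and 90.7% ± 1.21 (SD, n = 4), a difference of 30.1 percentage points. The exact two-sided permutation p was 0.0286, the smallest that 4 against 4 libraries can give, and 0.0571 after adjustment over the 4 shares tested. Hk1 held 24.7% in PBS and 6.9% in TNF, and Hkdc1 held 13.7% and 2.33%. Hk3 was too low to be tested as a single gene.

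**Figure D2:**
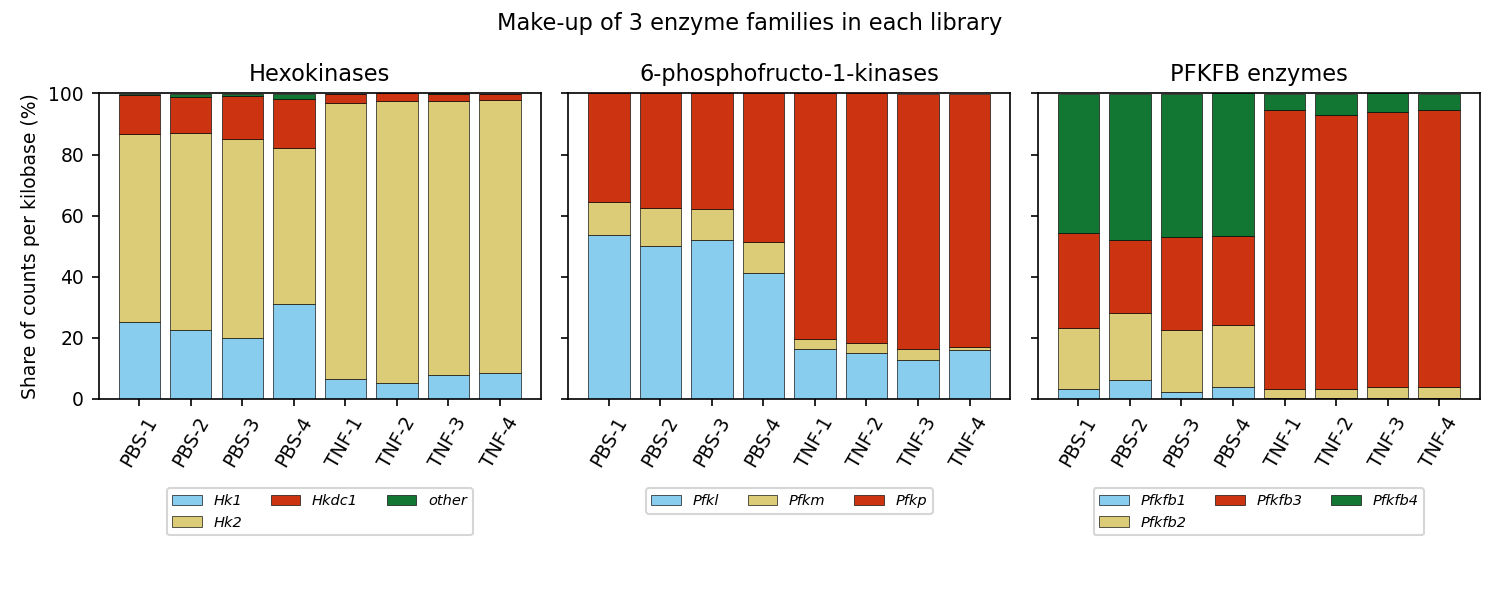
Stacked bars of the share (percent of counts per kilobase of merged exon) of each gene within the hexokinases (the lowest members joined as other), the phosphofructokinases and the PFKFB enzymes, with 1 bar per PBS or TNF library. In the mean, Hk2 held 60.6% in PBS and 90.7% in TNF, Pfkp 39.9% and 82.2%, and Pfkfb3 28.8% and 90.6% of its family.

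Pfkp and Pfkl moved in opposite directions. Pfkp, the platelet type (chromosome 13, 6629798 to 6698970, minus strand), had 17.6, 19.3, 19.5 and 28.3 normalized CPM in PBS and 90.1, 105, 107 and 74.5 in TNF. The groups were well apart, although PBS replicate 4 was the highest and TNF replicate 4 the lowest of their groups, and the rise was 4.44-fold (log2 fold change 2.15, SE 0.18, edgeR adjusted p = 7.07e-06). Pfkl, the liver type (chromosome 10, 77818084 to 77845922, minus strand), had 20.7, 20.2, 21 and 18.7 in PBS and 14.3, 15.1, 12.8 and 11.2 in TNF. All TNF values lay below the PBS range, and Pfkl fell by 0.58 on the log2 scale (SE 0.12, edgeR adjusted p = 0.00261). With library size alone its log2 fold change was -0.94 but was not called (edgeR adjusted p = 0.0565), and omitting TNF replicate 4 gave -0.50.

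Pfkm, the muscle type, was low at 3.1 ± 0.257 and 1.76 ± 0.91 normalized CPM, and its log2 fold change was -0.74 (SE 0.34) with an edgeR adjusted p of 0.0999, and it passed the threshold without TNF replicate 4, the library where its value was 0.429. Pfkl held 53.7%, 50.2%, 51.9% and 41.1% of the phosphofructokinase transcripts per kilobase in PBS and 16.4%, 15.1%, 12.8% and 16% in TNF. The means were 49.2% ± 5.59 and 15.1% ± 1.61 (SD, n = 4), a difference of -34.1 percentage points with an exact two-sided permutation p of 0.0286, or 0.0571 after adjustment. Pfkp held 39.9% ± 5.99 in PBS and 82.2% ± 1.47 in TNF. The summed level was 3.2 ± 0.231 normalized CPM per kilobase in PBS and 6.96 ± 1.11 in TNF.

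Without PBS replicate 4, the library with the lowest share of each in its group, the differences of the Pfkl and Hk2 shares were -36.9 and 26.9 percentage points. Their exact two-sided permutation p stayed at its smallest value, and the adjusted p became 0.0381 because the Slc2a1 share then reached that value too. Pfkp shares 1831 transcribed bases with Pitrm1, on the opposite strand, which had 4763 counts beside 12415 and a log2 fold change of -0.17 (edgeR adjusted p = 0.213). Pfkl shares 5126 bases with Cfap410, also on the opposite strand, which had 315 counts beside 4012 and a log2 fold change of -0.97 (edgeR adjusted p = 0.0156). In the canonical transcripts 58.5% of the 75-base stretches of Pfkp and 77.2% of those of Pfkl were not shared with another gene on either strand.

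Ldha (chromosome 7, 46490899 to 46505061, plus strand) was the most abundant member per kilobase in both groups. It had 164, 173, 172 and 129 normalized CPM in PBS and 230, 268, 225 and 333 in TNF, without overlap. It rose by 0.73 on the log2 scale (SE 0.16, edgeR adjusted p = 0.00455), and its highest value was in TNF replicate 4, without which the log2 fold change was 0.61. With library size alone it was 0.29 and not called (edgeR adjusted p = 0.437). Ldha held 99.9% of the Ldha and Ldhb transcripts per kilobase in PBS and in TNF, a difference of 0.0526 percentage points (exact two-sided permutation p = 0.4). Of its 75-base stretches 68% occurred in no other gene, and the rest were shared with 5 genes. Among these, Gm39011 overlaps Ldha over 477 exonic bases on the opposite strand, and Gm73513, another gene on that strand, overlaps it over 178. Neither was analysed here.

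Slc2a1 likewise held nearly all transcripts per kilobase of the carriers Slc2a1 to Slc2a4, with 96.8%, 96.7%, 96.7% and 100% in PBS and 99.5%, 99.8%, 99.4% and 99.4% in TNF. PBS replicate 4 had no count of the other 3 carriers and lay above the TNF range. The difference was 1.98 percentage points (exact two-sided permutation p = 0.143, adjusted p = 0.19), and without that library it was 2.8 (adjusted p = 0.0381). Slc2a2, the carrier of enterocytes and liver, had 0.509, 0.483, 0.512 and 0 normalized CPM in PBS and 0.106, 0.104, 0.211 and 0 in TNF and was too low to be tested.

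Ordered by mean level per kilobase of merged exon, the members in PBS ran from Ldha (33.6 normalized CPM per kilobase) over Hk2 (2.64), Slc2a1 (2.07), Pfkl (1.56), Pfkp (1.29), Hk1 (1.07), Pfkfb4 (1.03), Pfkfb3 (0.636) and Pfkfb2 (0.454) to Pfkfb1 (0.0847). The ranges of neighbours from Hk2 to Pfkfb4 overlapped, while Ldha stood clear of Hk2, and Pfkfb4, Pfkfb3, Pfkfb2 and Pfkfb1 were each apart from the next. In TNF the order was Ldha (55.7), Hk2 (26.4), Pfkfb3 (21), Slc2a1 (7.05), Pfkp (5.72), Hk1 (1.96), Pfkfb4 (1.39), Pfkl (1.04), Pfkfb2 (0.732) and Pfkfb1 (0.0729). There Hk2 overlapped Pfkfb3, Slc2a1 overlapped Pfkp, and the neighbours from Hk1 to Pfkfb2 overlapped. Against all tested genes, Pfkfb3 moved from the 28.4th to the 94.5th percentile of the level per kilobase, Hk2 from the 66.3rd to the 95.8th, and Pfkl from the 51.1st to the 39.4th. With canonical transcript lengths, an alternative added after seeing the data, only 3 of the 10 ranks were the same in each group, so the order in the middle rests on the length used.

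**Figure D3:**
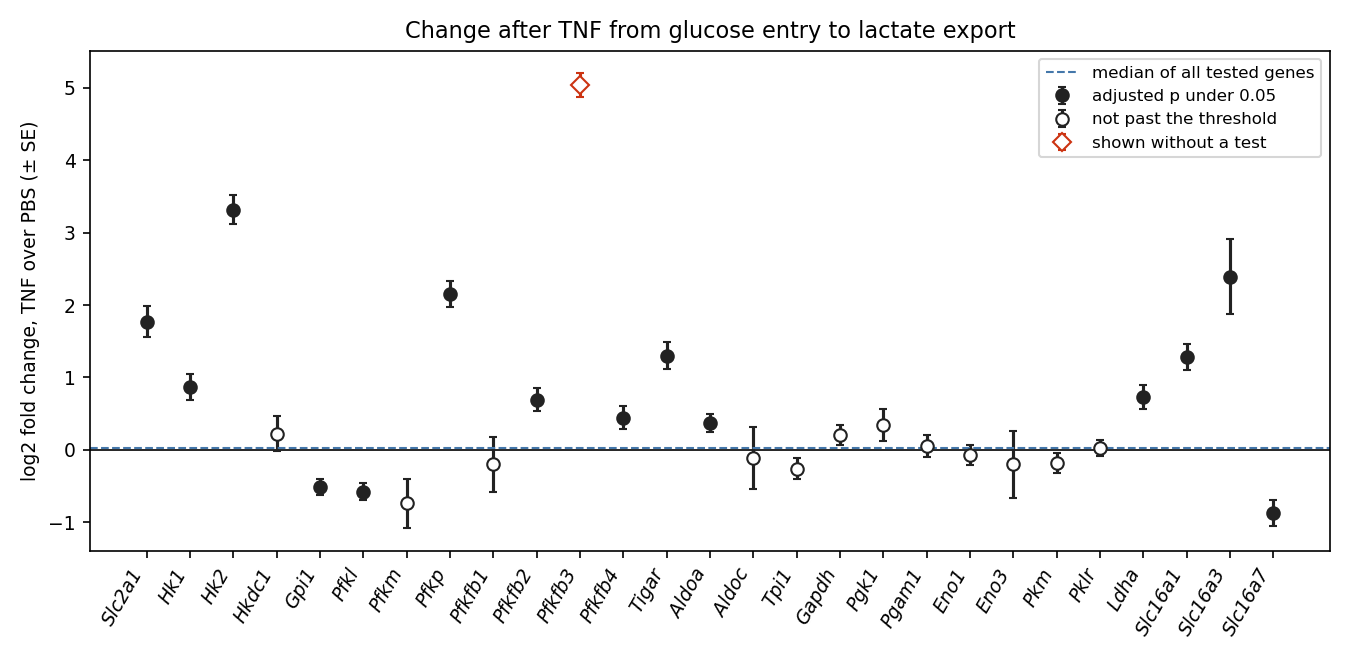
Log2 fold change (TNF over PBS, vertical axis, bars are ± SE) of genes in the order of the pathway, with filled points for called genes, open points for those that did not pass the threshold and a diamond for Pfkfb3, which was not tested. The dashed line is the median of all tested genes (0.03). Pfkfb3 (5.04), Hk2 (3.32), Pfkp (2.15) and Slc2a1 (1.77) lie high above the line, and the open points from Tpi1 to Pklr lie between -0.26 and 0.34.

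Of 21 other glycolytic genes 16 were tested, and 1 was higher, 2 were lower and 13 were not called, beside 43.0% called over all genes. The median log2 fold change was -0.09. Gpi1, which interconverts the hexose phosphates between the hexokinase and phosphofructokinase steps, fell by 0.51 (SE 0.11, edgeR adjusted p = 0.00461). Aldoa, an abundant aldolase, was 127 ± 17 in PBS and 165 ± 9.73 in TNF (log2 fold change 0.37, SE 0.13, edgeR adjusted p = 0.0408), but it was -0.02 with library size alone. The Aldoa call was also lost when any one library other than TNF replicate 4 was left out, with log2 fold changes of 0.24 to 0.42. Tpi1 was 98 ± 18.2 and 81.9 ± 6.16 (log2 fold change -0.26, edgeR adjusted p = 0.189), and it was called at -0.42 without PBS replicate 4 (edgeR adjusted p = 0.0233).

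Among the enzymes that were not called were Gapdh (log2 fold change 0.20), Pgk1 (0.34), Eno1 (-0.07), Pkm (-0.18) and Pklr (0.02), which were chosen after their values were seen. Much of the sequence of Gapdh, Pgk1, Eno1 and Aldoa is shared with other annotated genes, and 14.6%, 32.5%, 42.4% and 14.5% of their 75-base stretches were found in no other gene. Without TNF replicate 4 there were 4 calls in this list, 1 higher and 3 lower, and with library size alone 0 higher and 1 lower.

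Of 12 other hexose carriers 7 were tested, with 0 higher and 2 lower, beside 23.4% higher and 19.6% lower over all genes, and a median log2 fold change of -0.38. Slc2a5, the fructose carrier GLUT5 of the brush border, had 22.5, 25, 19.5 and 18.6 normalized CPM in PBS and 3.9, 4.29, 4.6 and 3.61 in TNF. It fell by 2.37 on the log2 scale (SE 0.14, edgeR adjusted p = 7.36e-07), without overlap between the groups. Slc2a8, an intracellular carrier, fell by 1.47 (SE 0.20, edgeR adjusted p = 0.000158). Slc5a1, the sodium-coupled glucose carrier SGLT1, was 27.8 ± 3.67 in PBS and 27.3 ± 3.69 in TNF (log2 fold change -0.03, SE 0.14, edgeR adjusted p = 0.892). Without PBS replicate 4 there were 4 calls, with Slc2a2 and Slc2a9 lower as well, and without TNF replicate 4 there were 3, of which 1 was higher. Of 8 enterocyte markers 2 were lower as well, Apoa4 and Anpep, the latter of which makes up most of their sum, and their part in the lower Slc2a5 was not tested.

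Of 8 genes whose enzymes oppose the forward flux 7 were tested, with 1 higher and 1 lower, beside 43.0% called over all genes, and a median log2 fold change of -0.31. Tigar, a phosphatase that removes the activator made by PFKFB enzymes, rose from 1.63 ± 0.194 to 4.03 ± 0.605 normalized CPM (log2 fold change 1.30, SE 0.19, edgeR adjusted p = 0.00026). Pck2, the mitochondrial enzyme that makes phosphoenolpyruvate, fell by 0.94 (SE 0.20, edgeR adjusted p = 0.0033). Fbp2, a fructose bisphosphatase, was 37.1 ± 1.56 and 31.9 ± 4.03 (log2 fold change -0.22, edgeR adjusted p = 0.141), and it was called without TNF replicate 4 (-0.29, edgeR adjusted p = 0.0191). Without PBS replicate 4 the list had 5 calls, 1 higher and 4 lower.

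In the pentose phosphate pathway, which draws on the glucose phosphate made by hexokinase, all 8 listed genes were tested, and 2 were higher, 0 lower and 6 not called (median log2 fold change -0.01), where 23.4% of all genes were higher. H6pd, the enzyme that starts this pathway inside the endoplasmic reticulum, had 13.1, 12.2, 13.3 and 13.1 normalized CPM in PBS and 47.7, 68.3, 48.6 and 42.6 in TNF. It rose 4.02-fold (log2 fold change 2.01, SE 0.15, edgeR adjusted p = 3.53e-06). Its cytosolic counterpart G6pdx was 18.8 ± 2.94 and 19.6 ± 1.95 (log2 fold change 0.07, edgeR adjusted p = 0.73). Pgd, the next oxidative enzyme, rose by 0.49 on the log2 scale (SE 0.16, edgeR adjusted p = 0.0283), which did not hold on leaving out PBS replicate 1, PBS replicate 4, TNF replicate 1 or TNF replicate 2 (0.33 to 0.51). Without PBS replicate 4 the list had 1 higher and 1 lower call. The abundant Taldo1 and Tkt were at log2 fold changes of -0.06 and -0.12 and were not called.

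**Figure D4:**
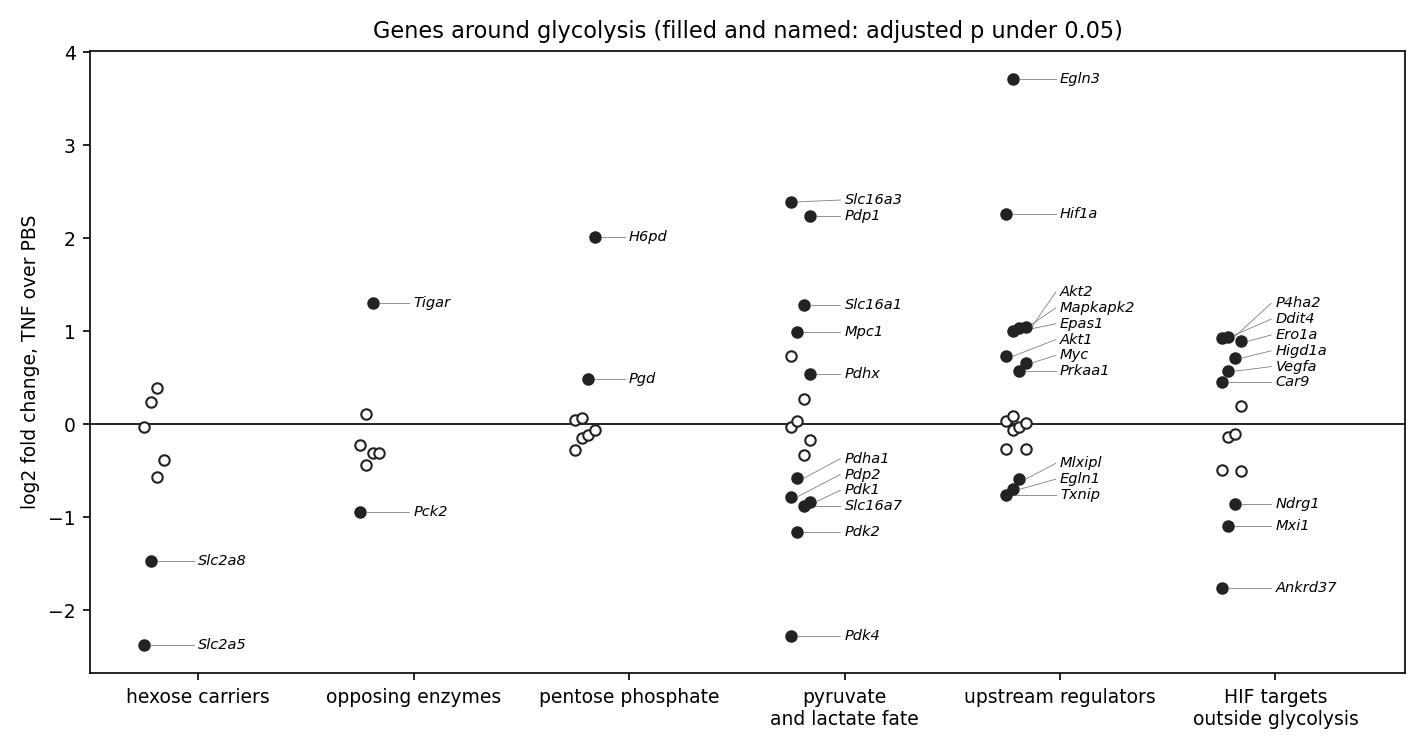
Log2 fold change (TNF over PBS, vertical axis) of every tested gene in the other pathway lists, 1 column of points per list, with called genes filled and named. The carriers hold 2 called genes, both lower, while the regulators, HIF targets and the genes of pyruvate and lactate fate hold called genes on both sides of 0.

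At the far end of the pathway, all 17 genes of pyruvate and lactate fate were tested, and 5 were higher, 6 lower and 6 not called (median log2 fold change -0.03), while 43.0% of all genes were called in either direction. Of the plasma membrane carriers of lactate, Slc16a1 rose from 19.8 ± 4.7 to 47.7 ± 5.17 normalized CPM (log2 fold change 1.28, SE 0.18, edgeR adjusted p = 0.000203). Slc16a3, the carrier typical of lactate-exporting cells, rose from a low 0.364 ± 0.198 to 1.89 ± 0.995 (log2 fold change 2.39, SE 0.52, edgeR adjusted p = 0.00385). Slc16a7, a high-affinity carrier, fell by 0.88 (SE 0.18, edgeR adjusted p = 0.00229). Bsg, a chaperone of lactate carriers, was at 252 ± 44.8 and 247 ± 59.6 (log2 fold change -0.03, edgeR adjusted p = 0.916).

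Around pyruvate dehydrogenase, the enzyme that commits pyruvate to the mitochondrial cycle, the genes of 3 of its 4 inhibitory kinases were lower, and the genes of its activating phosphatases moved in opposite directions. Pdk2 had 43.1, 41.8, 39.8 and 42.6 normalized CPM in PBS and 20.1, 16.8, 21.5 and 16.4 in TNF, and it fell by 1.16 on the log2 scale (SE 0.12, edgeR adjusted p = 2.37e-05). Pdk1 fell by 0.83 and Pdk4 by 2.28 (edgeR adjusted p = 0.000483 and 0.00608), although the Pdk4 values of the groups overlapped, and Pdk3 was not called (log2 fold change -0.17). Pdp1 rose from 4.72 ± 1.14 to 22.3 ± 4.13 (log2 fold change 2.24, SE 0.19, edgeR adjusted p = 8.14e-06), whereas Pdp2, the other phosphatase, fell by 0.78 (edgeR adjusted p = 0.00182). Pdha1, the catalytic subunit, fell by 0.58 (edgeR adjusted p = 0.00433), Pdhx rose by 0.54 (edgeR adjusted p = 0.00956), and the pyruvate carrier gene Mpc1 rose by 0.99 (edgeR adjusted p = 0.0203). Mpc1 had 16, 14.3, 14.7 and 34.2 in TNF, so its highest value was in TNF replicate 4. With library size alone the list had 2 higher and 5 lower.

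Of 18 regulators of these genes all were tested, with 8 higher, 3 lower and 7 not called (median log2 fold change 0.06), beside 23.4% higher and 19.6% lower among all genes tested. Hif1a, the inducible subunit of hypoxia-inducible factor, had 28.8, 27.1, 27.2 and 28.5 normalized CPM in PBS and 132, 144, 162 and 96 in TNF. It rose 4.79-fold (log2 fold change 2.26, SE 0.16, edgeR adjusted p = 2.19e-06), without overlap, and TNF replicate 4 was the lowest of its group. Epas1, a related subunit, rose by a log2 fold change of 1.00 (edgeR adjusted p = 0.00142), and their partner Arnt was not called (0.04). Of the prolyl hydroxylases that mark these subunits for decay, Egln3 rose from 0.216 ± 0.135 to 2.71 ± 0.365 normalized CPM (log2 fold change 3.71, SE 0.39, edgeR adjusted p = 2.82e-05), Egln1 fell by 0.70 (edgeR adjusted p = 0.00226) and Egln2 was not called (0.01).

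Among kinases that act on PFKFB enzymes or on glucose uptake, Akt2 rose from 30.3 ± 0.236 to 62.6 ± 7.01 normalized CPM (log2 fold change 1.05, SE 0.11, edgeR adjusted p = 2.9e-05). Akt1, Mapkapk2 and Prkaa1 rose by log2 fold changes of 0.73, 1.03 and 0.57 (edgeR adjusted p = 0.000414, 0.000928 and 0.00189). Prkaa2, the paralogue of Prkaa1, was at 35.2 ± 2.41 and 29.1 ± 2.41 normalized CPM and was not called (log2 fold change -0.27, edgeR adjusted p = 0.0599). The transcription factor Myc rose by 0.66 (SE 0.13, edgeR adjusted p = 0.00208). Txnip, which restrains glucose uptake, fell by 0.76 (SE 0.17, edgeR adjusted p = 0.00403), from 263 ± 55.3 to 155 ± 17.3, and Mlxipl, a carbohydrate-sensing factor, fell by 0.59 (edgeR adjusted p = 0.0436). The Mlxipl values of the groups overlapped. With library size alone 2 of this list were higher and 3 lower.

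Of 15 HIF targets outside glycolysis 14 were tested, and 6 were higher, 3 lower and 5 not called (median log2 fold change 0.05). Among all genes tested 23.4% were higher and 19.6% lower. Ero1a, an oxidase of the endoplasmic reticulum, rose by 0.89 on the log2 scale (SE 0.19, edgeR adjusted p = 0.00298), and Ddit4, an inhibitor of growth signalling, by 0.93 (SE 0.24, edgeR adjusted p = 0.00874). Vegfa, Car9, P4ha2 and Higd1a were higher by 0.57, 0.45, 0.94 and 0.71 (edgeR adjusted p = 0.0393, 0.0353, 0.0197 and 0.0109). The PBS and TNF values overlapped for Vegfa and P4ha2. Ndrg1 fell by 0.86 (SE 0.12, edgeR adjusted p = 0.000224), from 128 ± 5.81 to 70.4 ± 8.56 normalized CPM, Mxi1 fell by 1.09 (edgeR adjusted p = 0.000581) and Ankrd37 fell by 1.76 (edgeR adjusted p = 0.0124). Ankrd37 was low and its groups overlapped, at 0.482 to 1.11 normalized CPM in PBS and 0.105 to 0.515 in TNF. There were 3 higher and 3 lower without TNF replicate 2, 7 higher and 6 lower without TNF replicate 4, and 4 to 5 higher on leaving out any other library. Calls over all genes moved the same way, with 4901 of 13606 and 6922 of 13726 without these TNF libraries. There were 0 higher and 4 lower with library size alone.

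The genes with a profile nearest to Pfkfb3 over the 8 libraries, by the root mean square (RMS) difference of mean-centred log2 normalized CPM among 13306 genes compared, were Tlr2, Birc3, Cxcl1, Gm47079 and Casp4. Their RMS differences were 0.204, 0.267, 0.279, 0.284 and 0.313. With 2 groups this measure mostly follows the size of the rise in TNF, by which Pfkfb3 was chosen. The log2 differences of Tlr2, Birc3, Gm47079 and Casp4 were 5.38, 4.56, 5.55 and 4.83, beside 5.04 for Pfkfb3. Tlr2, a receptor for bacterial lipoproteins, went from 1.35 ± 0.153 to 56.3 ± 4.92 normalized CPM, and Birc3, an inhibitor of apoptosis in TNF signalling, from 8.08 ± 1.92 to 191 ± 24.4. Casp4, an inflammatory caspase, went from 3.78 ± 0.923 to 109 ± 24.3. The chemokine gene Cxcl1 had no count in any PBS library and 2.58 ± 0.76 in TNF, so its RMS difference and its place in this order are set by the prior count of 2, and Gm47079 went from 0.206 ± 0.0573 to 9.96 ± 0.762. The nearest members were Hk2 at rank 123 (RMS difference 0.896), Pfkp at rank 322 (1.45) and Slc2a1 at rank 491 (1.67), and the likeness is a description without a test.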

How the data were processed

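The authors deposited raw counts per Ensembl gene ID, 1 column per library. Per the labels, the library kit was TruSeq Stranded mRNA. The submitters' processing notes name STAR 2.7.10a, FastQC 0.12, DESeq2 and build mm39. The counter, its strand setting and its treatment of reads that match several genes are not given in the sources used.

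Members and lists were chosen with earlier results of these data known. Of all IDs, 54749 matched GENCODE release 39 (GRCm39) and 665 did not. Genes were tested with edgeR 4.0.16 in R 4.3.3 (glmQLFit and glmQLFTest, TMM, filterByExpr, no covariate) and called at an adjusted p under 0.05. The procedure was also run on simulated data with few changed genes and no library like TNF replicate 4. That run does not cover these features of the data. Normalized CPM in likeness used a prior count of 2. Standard errors were derived from the F statistic. Alternatives were scaling by RLE, by library size alone or without Defa genes, other filters, DESeq2 1.42.0, limma-voom (limma 3.58.1), a replicate block, a threshold of 0.01, raw or canonical-length shares, and leaving out each library. From each list the text names the 3 called genes with the smallest p and the 2 most abundant per kilobase in PBS, with the 5 genes nearest to Pfkfb3. Other genes were chosen after their values were seen, and some genes of the lists are counted but not reported here by name.

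No pair of libraries agreed within sampling noise (lowest chi-square per degree of freedom 8.77).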

Additional observations from a re-analysis of the deposited data

Results flagged for a closer look

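In 92 groups of 4 libraries (46 genes and shares), 5 values lay farther from the rest of their group than Dixon's critical value allows, and chance alone flags about 1 in 20 groups. In PBS replicate 4, Pgd was at 26.3 normalized CPM against 38.6 to 40 in the other PBS libraries. The share of Slc2a1 among the glucose carriers was 100% there against 96.7% to 96.8%. In TNF replicate 4, the library with the low scaling factor, Pdha1 was at 83.5 normalized CPM against 109 to 112. In TNF replicate 1, Gpi1 was at 57.7 normalized CPM against 54.4 to 54.7, and Egln3 was at 2.16 against 2.84 to 2.92. No value of Pfkfb3, Hk2, Pfkp or Pfkl was farther from its group than the critical value.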

How the results depend on the processing

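With library size alone, 3 members were called in place of 8, 1 gene of the rest of glycolysis in place of 3, 1 of the pentose phosphate pathway in place of 2, 7 of pyruvate and lactate fate in place of 11, 5 regulators in place of 11 and 4 HIF targets in place of 9, and Aldoa turned to -0.02. Over all genes this scaling called 3182 genes in place of 5747. An adjusted p under 0.01 left 4 HIF targets, and it left 1 pentose phosphate gene, as did no filter beyond 1 count. Leaving out each library in turn gave 7 to 8 members, 2 to 4 genes of the rest of glycolysis, 2 to 4 hexose carriers (4 without PBS replicate 4), 2 to 5 opposing enzymes (5 without PBS replicate 4), 1 to 2 pentose phosphate genes (1 without PBS replicate 1, TNF replicate 1 or TNF replicate 2), 11 genes of pyruvate and lactate fate in each case, 10 to 11 regulators and 6 to 13 HIF targets. The shares differed by -36.9 to -32.7 percentage points for Pfkl, 26.9 to 31.6 for Hk2, 0.00981 to 0.0787 for Ldha and 1.7 to 2.8 for Slc2a1, and the Pfkfb3 share of its family was 28 to 30.3% in PBS and 90.3 to 90.8% in TNF. With canonical transcript lengths that share was 18.5% and 84%, and 3 of 10 ranks were kept in each group. Over the same omissions Pfkfb1 was at log2 fold changes of -0.40 to 0.08 (0.08 without PBS replicate 2), Slc5a1 at -0.15 to 0.04 (0.03 without PBS replicate 3), Taldo1 at -0.22 to 0.01 (0.00 without PBS replicate 2) and Bsg at -0.20 to 0.06 (0.04 and 0.03 without PBS replicates 2 and 3), with the highest value of the last 3 without TNF replicate 3. Of the alternative values of single genes, 555 kept their direction and their side of the threshold, 40 lost and 2 gained a call, 9 turned sign and 1, of Pfkfb3 with no test, moved by more than the spread between libraries. The cause of these changes was not tested.

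The labels do not say whether libraries with equal replicate numbers belong together. Their deviations from the group means correlated at 0.0229, 0.0663, -0.144 and -0.126. These values cannot decide it, since TNF replicate 4 stood apart and enters the mean of its group. With the replicate block 5087 genes were called in all and 7 members, 2 genes of the rest of glycolysis, 2 hexose carriers, 2 opposing enzymes, 2 pentose phosphate genes, 10 genes of pyruvate and lactate fate, 11 regulators and 8 HIF targets. A sign-flip test of the shares that pairs equal numbers cannot give a p below 0.125.

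Pfkfb1 had 5 to 25 counts per library, and its log2 fold change had an SE of 0.38.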
